A study of Homo sapiens with 4 samples.

Results

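Carbonic anhydrases are zinc enzymes that interconvert carbon dioxide and bicarbonate, and 10 genes of this family were followed through 4 RNA-seq libraries of A375, a human melanoma cell line with mutant BRAF. The genes were CA2, CA3, CA4, CA5B, CA8, CA9, CA11, CA12, CA13 and CA14, out of 2864 genes with values in the part of the deposited table used here. They were chosen by family name, with their reads in these libraries already known. So their levels and ratios are given as a description, without a test. The table holds 15 coding genes of the family in all, and the other 5 had at most 9 reads in any library. The libraries were untreated parental cells (A375P), a resistant strain kept continuously under rising concentrations of vemurafenib (A375R), parental cells given the solvent DMSO (A375+DMSO) and parental cells given 2 μM vemurafenib (A375+VEM), the last pair for 48 h. Vemurafenib inhibits the BRAF kinase. All 4 libraries came from the same line, labelled wild type, grown in serum-containing medium, and they carried the same batch label. Whether A375R is 1 clone is not given in the sources used here. There was 1 library per condition, so differences lack a replicate check and p-values were not computed. In bulk RNA, fewer cells with a transcript and less of it per cell cannot be told apart.

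The deposited values were read counts and TPM, a transcript abundance in which counts are divided by gene length and brought to the same total in every library. The genes in the table had 1891215 to 2054277 reads and 8.48% to 8.94% of the TPM of each library, so these sums are not the depth. Of 10 pigment cell markers, only BIRC7 and APOD were in the table, with 1 to 18 and 4 to 106 reads, so the melanocytic identity of the cells could not be checked here. Markers of red cells summed to 3 to 10 reads per library and those of macrophages to 2 to 6. The endothelial pair ADGRL4 and ANGPT2 summed to 344 reads in A375P and 271 in A375R, with 85 in A375+DMSO and 80 in A375+VEM, most of them from ADGRL4. Its part in the results was not tested.

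The family is divided by where the protein sits. CA2, CA3 and CA13 are cytosolic, CA5B is mitochondrial, and CA4, CA9, CA12 and CA14 are held at the cell surface with the catalytic site outside, CA4 by a lipid anchor and the others by a transmembrane segment. CA8 and CA11 are carbonic anhydrase-related proteins, which lack the enzyme activity. In tumors the surface enzymes acidify the medium and help the cell export acid, and CA9 and CA12 are known targets of the hypoxia-inducible factors.

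Of the 10 genes, 4 had an entry in the RefSeq promoter table (GRCh38.p14), which spans 250 bases before the transcription start and 50 from it on. The windows of CA9 (chr9:35673678-35673977, plus strand) and CA12 (chr15:63381797-63382096, minus strand) are shown because both are textbook hypoxia targets that differed widely in level here. The core of the hypoxia response element is ACGTG or GCGTG, and capitals mark either form on either strand.
CA9: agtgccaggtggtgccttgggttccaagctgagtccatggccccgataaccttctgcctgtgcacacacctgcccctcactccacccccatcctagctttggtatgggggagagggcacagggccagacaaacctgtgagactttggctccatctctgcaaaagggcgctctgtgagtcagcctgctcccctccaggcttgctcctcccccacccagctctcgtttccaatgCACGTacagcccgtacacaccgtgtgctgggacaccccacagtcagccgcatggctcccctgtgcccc
CA12: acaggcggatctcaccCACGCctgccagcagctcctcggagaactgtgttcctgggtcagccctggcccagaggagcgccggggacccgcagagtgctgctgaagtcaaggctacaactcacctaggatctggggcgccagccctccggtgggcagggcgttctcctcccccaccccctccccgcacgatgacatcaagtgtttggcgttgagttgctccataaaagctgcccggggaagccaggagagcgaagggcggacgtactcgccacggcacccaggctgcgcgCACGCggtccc
The CA9 window held ACGTG 1 time, on the strand opposite to the one shown, with its first base 18 bases before the start, and GCGTG 0 times. The CA12 window held ACGTG 0 times and GCGTG 2 times, so both windows held a form of the core. The window of CA5B held ACGTG 1 time and GCGTG 6 times, and that of CA14 held neither form. Among 35116 promoter windows of the same length, 21.4% held ACGTG, 36.5% GCGTG and 48.4% at least 1 of them on either strand, so a match is common, and it describes the letters rather than a bound site.

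Among the coding genes of the family, a different gene had the highest TPM in each library. In A375P it was CA4 at a TPM of 5.17, in A375R it was CA5B at 10.1, in A375+DMSO it was CA9 at 23.2, and in A375+VEM it was CA11 at 29.9. In at least 1 library 7 genes reached a TPM of 1, and 4 genes did so in every library, namely CA4, CA5B, CA11 and CA13. CA2, CA8 and CA12 stayed under a TPM of 1 in all 4. The range of log2(TPM + 0.1) over the libraries was 7.87 for CA9 and 3.26 for CA11, against 0.85 for CA4 and 0.22 for CA13. The plot of TPM by library shows these spreads gene by gene.

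**Figure D1:**
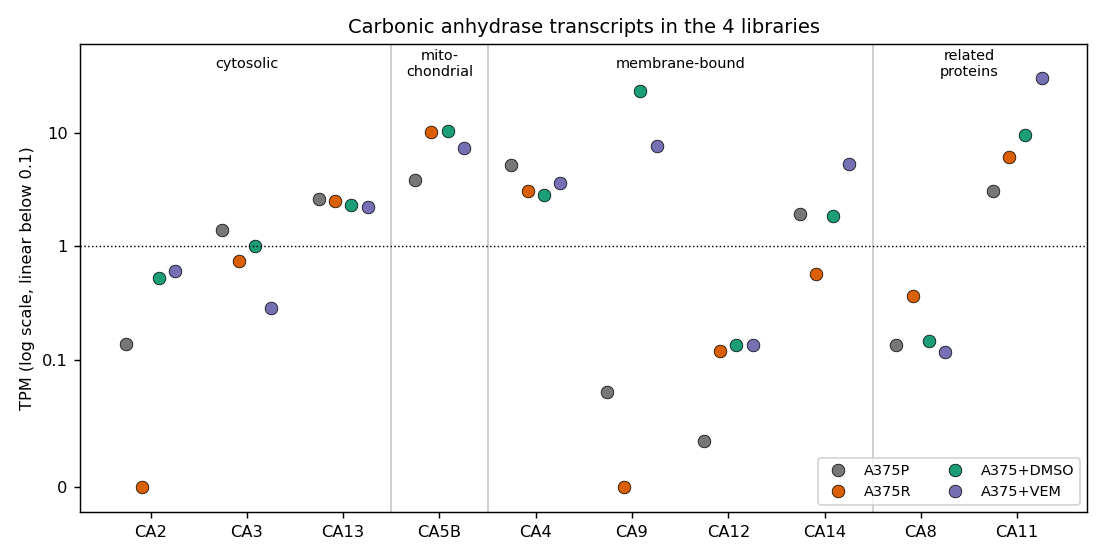
TPM of the 10 carbonic anhydrase genes (y axis, log scale that is linear below 0.1) in A375P, A375R, A375+DMSO and A375+VEM, with 1 point per library and vertical lines between groups of genes by place of the protein. The dotted line is a TPM of 1. CA9 runs from 0 in A375R to 23.2 in A375+DMSO, while the 4 points of CA13 lie close together.

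CA9, the surface enzyme best known as a marker of tumor hypoxia, lies at chr9:35673915-35681156 on the plus strand (hg19). Its reads numbered 1 in A375P and 0 in A375R, with 289 in A375+DMSO and 95 in A375+VEM. Its TPM was 0.075, 0, 23.2 and 7.69. It was therefore at the limit of detection in the untreated and the resistant cells and well detected in both 48 h cultures, with and without drug. A count of 0 in A375R allows a TPM of up to 0.249, taking 3 reads as the limit. The ratio of A375+DMSO to A375P was 310, with a 95% interval from 55.2 to 12275 that reflects the single read in A375P. All intervals on ratios were computed from the reads of each pair by the Clopper-Pearson method, and cover counting error only. In A375R, with its 0 reads counted as 3 in that library, CA9 was 93.3-fold lower than in A375+DMSO. With the 0 reads left as they were, the 95% interval reached down to 75.4-fold. Within the 48 h cultures it was lower with vemurafenib, at a ratio of 0.331 (95% interval 0.260 to 0.419).

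The other hypoxia-inducible genes were counted from a list of 10, all of them in the table and compared in every pair. Their symbols all begin with A or B, so the list is partial, and hypoxia-inducible genes outside it were not counted. A gene was called higher or lower when (TPM + 0.1) differed by more than 1.5-fold between the libraries of a pair, provided that either of them had a TPM of 1 or more, and log2 ratios carry this added 0.1, which makes changes of low genes look smaller. In A375+DMSO against A375P, where CA9 had its log2 ratio of 7.06, 3 of the 10 were higher and 4 were lower, beside 26.8% higher and 18.9% lower over all genes compared. The median log2 ratio of the list was 0.42 against 0.09 over all genes. ALDOC, a glycolytic aldolase, was at 4.36 and ANGPTL4, a lipase inhibitor, at 0.84, while BHLHE40, a transcriptional repressor, was at -2.03 and ADM, the vasodilator adrenomedullin, at -2.02. ALDOC had 82 reads in A375P and 484 in A375R, with 1598 in A375+DMSO and 1444 in A375+VEM. It was thus highest in the same pair of libraries as CA9 but was also well detected in A375R. In A375+VEM against A375+DMSO, where CA9 was at -1.58, 2 of the 10 were higher and 3 were lower, beside 26.5% and 19.7% of all genes, with a median of -0.21 against 0.11. ADM and AK4, a mitochondrial adenylate kinase, were lowest at -2.08 and -1.14, and ANGPTL4 and ANKRD37, an ankyrin repeat protein, were highest at 2.14 and 1.07. In A375R against A375P, where CA9 was under the level needed for a ratio, 3 were higher and 5 lower, beside 26.8% and 17.5% of all genes, with a median of -0.52 against 0.10. ALDOC and ANGPTL4 were highest at 2.69 and 1.06, and ADM and BHLHE41, a relative of BHLHE40, were lowest at -2.28 and -2.03. In A375R against A375+DMSO, with CA9 at -7.87, 1 was higher and 3 were lower, beside 10.5% and 9.99% of all genes, with a median of -0.18 against 0.02. BHLHE40 and ANKRD37 were at 1.24 and 0.26 there, and ALDOC and AK4 at -1.67 and -1.13. So in each pair in which CA9 was compared, the list went in both directions.

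**Figure D2:**
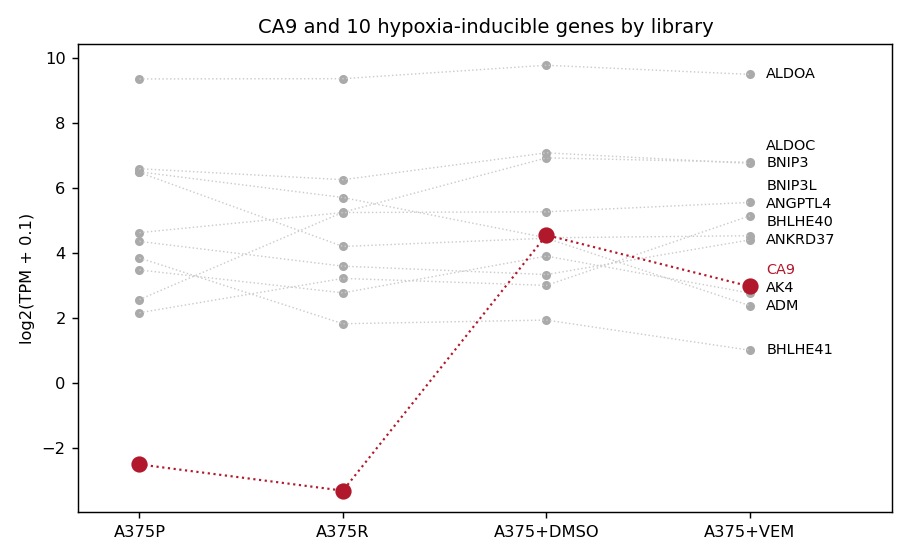
log2(TPM + 0.1) of CA9 (red) and of the 10 listed hypoxia-inducible genes (grey, named at the right) in the 4 libraries, with 1 point per gene and library and dotted lines that only join the points of a gene. CA9 lies below every listed gene in A375P and A375R and among them in A375+DMSO and A375+VEM.

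CA12, the other hypoxia-linked transmembrane enzyme, lies at chr15:63613577-63674365 (hg19). Its reads numbered 2 in A375P and 6 in A375R, with 7 in A375+DMSO and 7 in A375+VEM, a TPM of at most 0.136. No difference in CA12 was detectable at this depth. Its ratio of A375+DMSO to A375P was 3.75, with a 95% interval from 0.714 to 37.0.

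CA14, a transmembrane enzyme, lies at chr1:150230138-150237478 (hg19). Its reads numbered 30 in A375P and 8 in A375R, with 27 in A375+DMSO and 76 in A375+VEM, or a TPM of 1.92, 0.568, 1.86 and 5.26. A375P and A375+DMSO were alike in level, A375R was the lowest and A375+VEM the highest. In A375R the ratio was 0.295 to A375P (95% interval 0.117 to 0.659) and 0.306 to A375+DMSO (95% interval 0.120 to 0.693). Acute vemurafenib gave 2.83 times the level of A375+DMSO (95% interval 1.81 to 4.58). A375+DMSO and A375P had a ratio of 0.965, with an interval from 0.552 to 1.68. CA14 was lower in the resistant strain and higher under acute drug, and the difference between these ratios was not tested.

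CA4, anchored to the outer membrane leaflet by glycosylphosphatidylinositol, lies at chr17:58227297-58256382 (hg19). Its reads numbered 124 in A375P and 67 in A375R, with 63 in A375+DMSO and 80 in A375+VEM, or a TPM of 5.17, 3.10, 2.82 and 3.60. A375P was above the other libraries, which lay close to each other. The ratio to A375P was 0.598 in A375R (95% interval 0.438 to 0.812) and 0.544 in A375+DMSO (95% interval 0.396 to 0.743). A375+VEM against A375+DMSO gave 1.28 with an interval from 0.908 to 1.81, so a difference there was not detectable at this depth.

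Among the cytosolic enzymes CA13 was the only one above a TPM of 1 in every library. CA13, an enzyme of broad tissue distribution, had 86 reads in A375P and 74 in A375R, with 71 in A375+DMSO and 68 in A375+VEM, or a TPM of 2.60, 2.48, 2.30 and 2.22. Its 4 ratios ran from 0.885 to 1.08, and every interval included 1, the lowest bound being 0.637 and the highest 1.51. CA3, an enzyme abundant in skeletal muscle, had 21 reads in A375P and 10 in A375R, with 14 in A375+DMSO and 4 in A375+VEM. It was past 1.5-fold in A375R against A375P at a ratio of 0.527, but the 95% interval ran from 0.222 to 1.17. In A375+VEM against A375+DMSO its ratio was 0.288 (95% interval 0.069 to 0.916), and its TPM there was under 1 in both libraries, so it was not counted. The muscle actins ACTA1 and ACTC1 had at most 7 and 24 reads, both at their highest in A375+VEM, where CA3 was lowest. CA2, the fast and widely expressed cytosolic enzyme, had 2 reads in A375P and 0 in A375R, with 7 in A375+DMSO and 8 in A375+VEM, a TPM of at most 0.605. CA2 and CA9 were both at 0 in A375R and highest in the 48 h cultures, but with so few reads of CA2 the ratio of A375+DMSO to A375P had an interval from 0.714 to 37.0. In A375R, with its 0 reads counted as 3 in the same way, CA2 was 2.26-fold lower than in A375+DMSO. With the 0 reads left as they were, the 95% interval reached down to 1.40-fold, but the TPM of CA2 was too low to be counted. CA2, CA3 and CA13 lie in one stretch of a single chromosome, and an antisense RNA, CA3-AS1, overlaps CA3 over 7235 bases and CA2 over 1014. CA3-AS1 had 0 reads in every library, and whether the counting used strand is not given in the sources used here.

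CA5B, the mitochondrial enzyme, which supplies bicarbonate to biosynthetic reactions, lies at chrX:15756412-15805748 (hg19). Its reads numbered 199 in A375P and 471 in A375R, with 500 in A375+DMSO and 348 in A375+VEM, or a TPM of 3.85, 10.1, 10.4 and 7.27. A375P was the lowest, A375R and A375+DMSO were close together, and A375+VEM was between. Against A375P the ratio was 2.62 in A375R (95% interval 2.22 to 3.11) and 2.69 in A375+DMSO (95% interval 2.28 to 3.19). A375R against A375+DMSO was at 0.973, with an interval from 0.856 to 1.11. A375+VEM was at 0.701 of A375+DMSO (95% interval 0.609 to 0.805), short of the 1.5-fold threshold.

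CA5BP1, a transcribed pseudogene of CA5B, lies near it on the same strand at chrX:15693039-15721474 (hg19). The pseudogene had 449 reads in A375P and 225 in A375R, with 182 in A375+DMSO and 101 in A375+VEM. It was highest in A375P, where CA5B was lowest. Both genes were lower in A375+VEM than in A375+DMSO, CA5BP1 at a ratio of 0.559 (95% interval 0.434 to 0.717). Its TPM was 13.7 times that of CA5B in A375P, 2.90 times in A375R, 2.21 times in A375+DMSO and 1.76 times in A375+VEM. Reads of both genes together were 648, 696, 682 and 449. CA5B took 30.7% of them in A375P (95% exact binomial interval 27.2% to 34.4%), 67.7% in A375R and, among the 48 h cultures, 73.3% with DMSO and 77.5% with vemurafenib (interval 73.4% to 81.3%). The sum of raw reads, not scaled between libraries, was therefore close in the first 3 libraries while its division was not. Among these 3 libraries scaling gives a read of A375P the least weight, so it would set this sum of reads further below those of A375R and A375+DMSO. That holds for reads and not for TPM, which also divides by gene length. The TPM of CA5BP1 was 52.7 in A375P, 29.2 in A375R and 22.9 in A375+DMSO. How reads that match both copies were assigned is not given in the sources used here, so the level of each gene is uncertain.

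CA11, a related protein without enzyme activity, lies at chr19:49141199-49149569 (hg19). Its reads numbered 65 in A375P and 117 in A375R, with 190 in A375+DMSO and 592 in A375+VEM, or a TPM of 3.04, 6.06, 9.53 and 29.9. A375+VEM stood far above the rest, and every other library was above A375P. With vemurafenib CA11 was at 3.14 times its level in A375+DMSO (95% interval 2.66 to 3.71). Against A375P, A375R was at 1.99 (95% interval 1.46 to 2.74) and A375+DMSO at 3.13 (95% interval 2.35 to 4.22), while A375R was at 0.636 of A375+DMSO (95% interval 0.501 to 0.805). CA11 was thus higher in A375R with A375P as the control and lower with A375+DMSO as the control. CA8, the other related protein, which binds an intracellular calcium channel receptor, had 10 reads in A375P and 24 in A375R, with 10 in A375+DMSO and 8 in A375+VEM. Its highest level was in A375R, at 2.66 times A375P (95% interval 1.22 to 6.23), but at a TPM of 0.364 it was too low to be counted.

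Summed by place, the family shifted in makeup between libraries. The 15 coding genes together had a TPM of 19.2 in A375P and 24.5 in A375R, with 52.6 in A375+DMSO and 57.7 in A375+VEM. Active enzymes, 12 genes in all, summed to a TPM of 16.0, 18.1, 42.9 and 27.6. Membrane-bound enzymes made up 45.1% of the active total in A375P and 20.9% in A375R, with 65.4% in A375+DMSO and 60.5% in A375+VEM. On this measure the resistant strain was lowest and the 48 h cultures highest. CA4 carried 71.8% of the membrane-bound TPM in A375P and 81.8% in A375R, whereas CA9 carried 82.8% of it in A375+DMSO and 46.1% in A375+VEM. Mitochondrial enzymes made up a share of the active total of 56.4% in A375R and of between 24.7% and 26.8% in the other libraries. Their summed TPM was 10.2 in A375R and 10.6 in A375+DMSO, while the membrane-bound sum was 3.78 in A375R and 28.0 in A375+DMSO. Most of the mitochondrial sum was CA5B, whose level is uncertain because the assignment of reads shared with CA5BP1 is not known. The cytosolic sum varied little, from a TPM of 3.35 in A375+VEM to 4.44 in A375P. The related proteins made up 52.2% of all coding genes of the family in A375+VEM, against 16.7% in A375P, 26.2% in A375R and 18.4% in A375+DMSO.

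**Figure D3:**
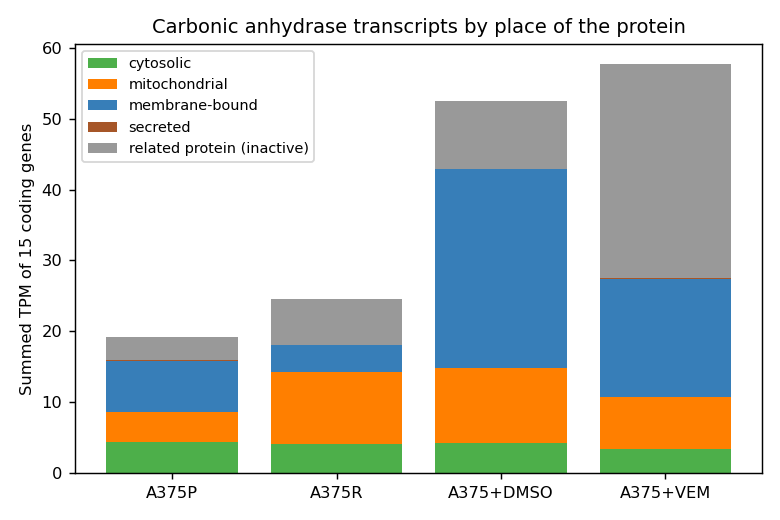
Summed TPM (y axis, from 0) of the 15 coding carbonic anhydrase genes in each library, stacked by the place of the protein. The membrane-bound part is largest in A375+DMSO and the inactive related proteins are largest in A375+VEM.

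Counted across the family, A375R against A375P had 6 of the 10 genes at a TPM high enough to be compared, with 2 higher (CA5B and CA11) and 3 lower (CA4, CA3 and CA14). Over all 1689 genes compared in that pair 44.3% were past the threshold, with 26.8% higher and 17.5% lower. In A375+VEM against A375+DMSO 6 genes were compared, with 2 higher (CA11 and CA14) and 1 lower (CA9), beside 46.2% of 1784 genes past the threshold, 26.5% higher and 19.7% lower. In that pair 57.3% of the genes past the threshold were higher by TPM, but 46.9% were with scaling by edgeR's TMM. The TMM factors were computed from the 2864 genes with values, not from the whole library. This scaling moved the median log2 ratio of all genes from 0.11 to -0.05. It put CA3 and CA5B among the lower members, making 2 higher and 3 lower. In A375+DMSO against A375P 7 genes were compared, with 3 higher (CA9, CA11 and CA5B) and 1 lower (CA4), beside 45.7% of 1720 genes, 26.8% higher and 18.9% lower. In A375R against A375+DMSO 6 genes were compared, with 0 higher and 3 lower (CA11, CA14 and CA9), beside 20.5% of 1702 genes, 10.5% higher and 9.99% lower. The median log2 ratio of the compared members in these 4 pairs was -0.40, 0.15, -0.05 and -0.34, and that of all genes was 0.10, 0.11, 0.09 and 0.02. A gene could be compared through the single library in which it was high, so these counts describe the members and set nothing apart. The pairs share control libraries, and their ratios are not independent of each other. By place, the membrane-bound enzymes that were compared went in both directions in A375+VEM and in A375+DMSO, and 2 of 2 were lower in A375R against A375P.

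**Figure D4:**
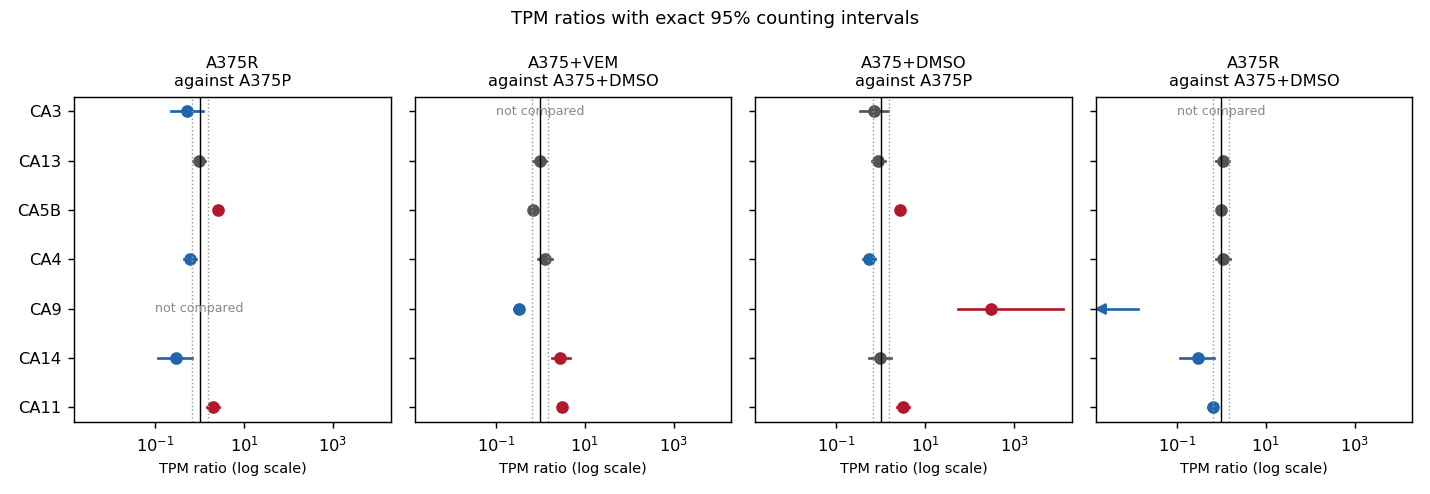
TPM ratios (x axis, log scale) of the 7 carbonic anhydrase genes that reached a TPM of 1, in 4 pairs of libraries, with exact 95% counting intervals as lines. Red points are past 1.5-fold higher, blue points past 1.5-fold lower, grey points neither, dotted lines mark 1.5-fold, and the arrow is CA9 at 0 reads in A375R. CA5B is higher in A375R and in A375+DMSO than in A375P and near 1 between A375R and A375+DMSO.

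Carbonic anhydrases work beside pumps and channels that move protons and carbon dioxide, and 29 such genes were in the table, 24 of them at a level to be compared. They were subunits of the vacuolar proton pump, the gastric-type proton pumps, the water channel AQP1 and BSG, a chaperone of lactate transporters. In A375R against A375P 1 of the 24 was higher and 14 were lower, beside 26.8% and 17.5% of all genes. The median log2 ratio was -0.79 against 0.10 over all genes. ATP6V0A4 was at 2.91 and ATP6V1B1 at 0.33, and ATP6V1B2 was at -1.75 and ATP6V1G2 at -1.42. In A375+DMSO against A375P 1 was higher and 13 were lower, beside 26.8% and 18.9% of all genes. The median was -0.71 against 0.09, with values from AQP1 at 0.59 and BSG at 0.16 to ATP6V1B2 at -1.72 and ATP6V1D at -1.53. In A375+VEM against A375+DMSO 14 were higher and 1 was lower, beside 26.5% and 19.7% of all genes. This count used TPM and was not repeated with edgeR's TMM, which lowers the ratios of this pair. The median was 0.66 against 0.11, with values from ATP6V1B1 at 1.56 and AQP1 at 1.51 to ATP6V1E2 at -0.80 and ATP6V1C2 at -0.25. In A375R against A375+DMSO 1 was higher and 1 lower, beside 10.5% and 9.99% of all genes. The median was -0.01 against 0.02, with values from ATP6V0A4 at 3.61 and ATP6V0A2 at 0.55 to ATP6V1G2 at -1.56 and BSG at -0.57. By TPM, CA3, CA4 and CA13 had their highest level in A375P, CA5B and CA11 had their lowest there, and CA9 and CA14 had their lowest in A375R. The intervals of CA13 all included 1. For CA3 the interval of A375R to A375P ran from 0.222 to 1.17 and that of A375+DMSO to A375P from 0.336 to 1.47. CA9 had 0 reads in A375R and 1 in A375P, too few to order these libraries.

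The genes most like CA9 and CA11, the members with the widest ranges, were found by the smallest Euclidean distance between centred profiles of log2(TPM + 0.1) over the 4 libraries, among 1816 other genes. Those nearest to CA9 were ATOH8 at a distance of 2.82, ATP1B2 at 3.22, C1orf234 at 3.41, BANCR at 3.87 and BAALC at 3.88, so none followed it closely. ATOH8, a transcription factor, had 13 reads in A375P and 9 in A375R, with 284 in A375+DMSO and 898 in A375+VEM. Unlike CA9, its level was greater with vemurafenib than with the solvent alone. ATP1B2, a sodium pump subunit, had 2 reads in A375P and 11 in A375R, with 140 in A375+DMSO and 272 in A375+VEM. BANCR, a noncoding RNA, had 0, 5, 56 and 187 reads in the same order, and BAALC had 2, 7, 51 and 88. Few reads in A375P and A375R with many in the 48 h cultures were thus also seen in these genes, which were picked for their likeness to CA9. Limits set after CA9 was seen were at most 3 reads in A375P and A375R and at least 50 in both 48 h cultures. Of 2864 genes, only CA9 met them, while BANCR and BAALC missed them only by their 5 and 7 reads in A375R. Since the limits followed CA9, the count does not set it apart. C1orf234 had at most 5 reads. Those nearest to CA11 were AGBL2 at 0.239, ARSA at 0.291, ADGRL3 at 0.312, AMT at 0.341 and ADAM23 at 0.343. ARSA, the lysosomal arylsulfatase A, had a TPM of 3.92 in A375P and 8.02 in A375R, with 9.88 in A375+DMSO and 32.9 in A375+VEM, close to CA11 in each library. With 4 libraries such profiles rest on few points and are a description.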

How the data were processed

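Sequencing covered 1 RNA library each of A375P, A375R, DMSO-treated and vemurafenib-treated cells. The authors deposited read counts, which are whole numbers without normalization, and TPM per gene. In the authors' TPM, counts per base of gene were brought to a common total over the whole library, since TPM times length over count gave a single constant in each. The submitters' processing notes name the build hg19 and the tools HISAT2, HISAT, TopHat2 and Bowtie2, without their roles, and the counting program is not given in the sources used here. The table used here holds 2864 genes with values, and 1 incomplete row was left out. The library totals behind the TPM were used for scaling, and intervals cover counting error only. The factors of edgeR's TMM and of DESeq2, used as alternatives, were computed from the reads of these 2864 genes alone.

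Members were found by symbol and given by reads, TPM and TPM ratio. Ratios of (TPM + 0.1) past 1.5-fold were counted where either library had a TPM of 1 or more. Named were all members, other genes of the family, the 5 genes most like each of the 2 members of widest range, and the 2 largest and 2 smallest ratios of each list. The members and lists were chosen with earlier results of these data known. Alternatives tried were a pseudocount of 0.01 or 1, leaving out the filter, a TPM of at least 5, a median ratio of 1, scaling by edgeR's TMM or DESeq2's size factors, 2-fold as the threshold, and an interval that excludes 1. The ratio step was tested on simulated data. Software was R 4.3.3 with DESeq2 1.42.0 and edgeR 4.0.16, and Python 3.11.15 with matplotlib 3.10.9, pandas 2.3.3, scipy 1.17.1 and numpy 2.4.6.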

Additional observations from a re-analysis of the deposited data

Results flagged for a closer look

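In CA5B and CA14 the resistant and the acute pair moved in opposite directions, with both counting intervals clear of 1. The log2 ratio of CA5B was 1.37 in A375R against A375P and -0.51 under acute vemurafenib against A375+DMSO, which fell short of 1.5-fold. Against A375+DMSO, A375R was at -0.04. These CA5B values are uncertain, because how reads shared with CA5BP1 were assigned is not known. The log2 ratio of CA14 was -1.60 in A375R against A375P and 1.45 in A375+VEM against A375+DMSO, and A375R was at -1.55 against A375+DMSO. With 1 library per condition whether these pairs differ was not tested.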

How the results depend on the processing

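The number of members past the threshold stayed within 1.5 times the first count in 31 of 36 alternatives. In A375R against A375P it went from 5 to 9 without the filter on low values, to 3 at a TPM of at least 5 and to 2 at a threshold of 2-fold. In A375+VEM against A375+DMSO it went from 3 to 5 with edgeR's TMM, where CA3 and CA5B were also lower, and CA5B was past the threshold under a median ratio of 1 and DESeq2's size factors too. In A375R against A375+DMSO it went from 3 to 5 without the filter. CA3 in A375R against A375P was not counted with a pseudocount of 1, an interval that excludes 1, a TPM of at least 5 or a threshold of 2-fold. CA14 was not counted at a TPM of at least 5 in A375R against either control, and CA11 in A375R against A375+DMSO was not counted with a pseudocount of 1 or a threshold of 2-fold. None of the 125 single log2 ratios of members under another pseudocount or scaling changed sign in a called gene, and another scaling moved them by at most 0.15. With a pseudocount of 1, CA9 went to 4.49 in A375+DMSO against A375P and to -4.60 in A375R against A375+DMSO, since its reads there were 1 and 0. Apart from what an alternative admits by construction, the cause was not tested. No library could be left out with 1 per condition. Depth limits CA2, CA3, CA8 and CA12, whose reads never exceeded 24.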

Other observations

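Of the coding genes of the family outside the members, CA7, a cytosolic enzyme of brain, had 1 read in A375P and 9 in A375R, with 4 in A375+DMSO and 1 in A375+VEM. CA1, the red cell enzyme, had 3, 3, 2 and 2 reads in the same order, and CA5A, the liver mitochondrial enzyme, had 3, 1, 2 and 1. CA6, the secreted enzyme of saliva, and CA10, a related protein, had 0 reads in A375R and A375+DMSO and at most 2 in the others. The pseudogene CA5AP1 had at most 2 reads. All of these were under a TPM of 1 in every library.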
